A study of Mus musculus with 4 samples.

Results

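The clustered protocadherin genes are 3 neighbouring families, named alpha, beta, and gamma, of cell-surface proteins of the cadherin superfamily. Members were all genes in the deposited values whose symbol is *Pcdh* followed by a family letter, an optional subgroup letter, and a number, which gave 59 of 24421 genes. They comprise 15 genes of the alpha cluster, 22 of the beta cluster, and 22 of the gamma cluster. The alpha cluster holds 2 C-type genes, *Pcdhac1* and *Pcdhac2*, and 13 other entries. These entries are alternate genes, except *Pcdha7-g*, an annotation that shares its start with *Pcdha7* and runs on to the end of the gamma cluster. The gamma cluster holds 12 genes of subgroup A, 7 of subgroup B, and the 3 C-type genes *Pcdhgc3*, *Pcdhgc4*, and *Pcdhgc5*. The rule for members used gene symbols only and no measured value.

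The genes were examined in 4 RNA-seq libraries of cells sorted by fluorescence-activated cell sorting (FACS) from the main olfactory epithelium (MOE), the sensory sheet of the nose. GFP-positive and GFP-negative cells came from TAAR enhancer 1-GFP transgenic mice, and tdTomato-positive and tdTomato-negative cells from TAAR enhancer 2-tdTomato transgenic mice. In both lines a PiggyBac transgene carries an enhancer of the trace amine-associated receptor (TAAR) genes in front of the Hsp68 minimal promoter and the reporter, so both libraries of a line carry the transgene and were separated by the sort. The study kept 1 founder line for each transgene, and the labels give the strain as C57BL/6 and the age as adult. The Reporting Summary describes mice of both sexes on a mixed background with 129. It gives their ages as days after birth, which conflicts with the adult label, and its range reaches to older mice for the tdTomato than for the GFP line. Which age and strain apply to these libraries is unsure. The number of animals behind a library was not given in the sources used here. Each group has 1 library, so the differences given here could not be checked against replicates, and none has a p-value. Because the samples are bulk RNA, fewer cells of a type and less RNA per cell cannot be told apart.

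Alpha and gamma genes each supply their own variable first exon, with its own promoter, and splice it to constant exons shared by the whole cluster, whereas each beta gene encodes its protein without constant exons. In neurons, single promoters are switched on in apparently random combinations through DNA methylation, CTCF, and cohesin, so that neighbouring cells carry different sets of isoforms. The proteins bind identical isoforms on another membrane and let a neuron tell its own branches from those of others. In olfactory sensory neurons (OSNs), the receptor neurons of the nose, they are needed for axons to sort into glomeruli of the olfactory bulb.

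In the RefSeq annotation of GRCm38.p6, all 59 members were matched and lie on chromosome 18 within 911.6 kb. Measured from the start of *Pcdha1*, the alpha genes start within the first 213.4 kb, the beta genes between 334.7 and 588.1 kb, and the gamma genes between 731.5 and 889.3 kb. Because alpha and gamma transcripts end in shared constant exons, many of their sequences are not unique. In GENCODE M21 transcripts, the median percent of 50-base windows that also occur in a transcript of another gene was 60.8% for 11 alternate alpha genes, 44.4% for gamma A, 50.2% for gamma B, and 37.3% for gamma C genes. The corresponding median was 4.46% for the 22 beta genes, and *Pcdhb1* shared no window. The values of single alpha and gamma genes therefore depend on how shared reads were assigned, while those of beta genes rest mostly on unique sequence.

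Values are in TPM, a transcript abundance that is scaled for transcript length and brings the total of every library to 1000000, so levels can be compared between genes but the depth is unknown. The GFP-positive library stands apart, as its 10 highest genes held 31.5% of all TPM against 5.72% to 9.44% in the other 3 libraries. *Omp*, the marker of mature OSNs, was present in all 4 libraries, at 9584 TPM in GFP-negative, 1108 in GFP-positive, 10108 in tdTomato-negative, and 4427 in tdTomato-positive cells. Marker levels of other cell types differed between the sorts and are given beside the results they touch.

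Most clustered protocadherin genes were detected at low levels. Of the 59 members, 55 were above 0 TPM in at least 1 library and 18 reached 1 TPM in all 4. At least 1 TPM was reached by 46 members in GFP-negative, 23 in GFP-positive, 47 in tdTomato-negative, and 48 in tdTomato-positive cells. The median member had 2.99 TPM in GFP-negative, 0.881 in GFP-positive, 3.73 in tdTomato-negative, and 2.74 in tdTomato-positive cells. The GFP-positive library was thus the lowest by both measures, and the other 3 were close to each other. *Pcdha4*, *Pcdha6*, *Pcdha7*, and *Pcdha7-g* were listed at 0 in all libraries, and 8 members were listed at 0 in some libraries. The first 3 of these genes each share their start, within 41 bases, with a second annotated gene that runs on to the end of the gamma cluster, *Gm37013*, *Gm38666*, and *Pcdha7-g*, respectively. These partners were also listed at 0, except *Gm38666* at 0.0148 TPM in tdTomato-negative cells, and the part of the paired annotation in the values of 0 was not tested.

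**Figure D1:**
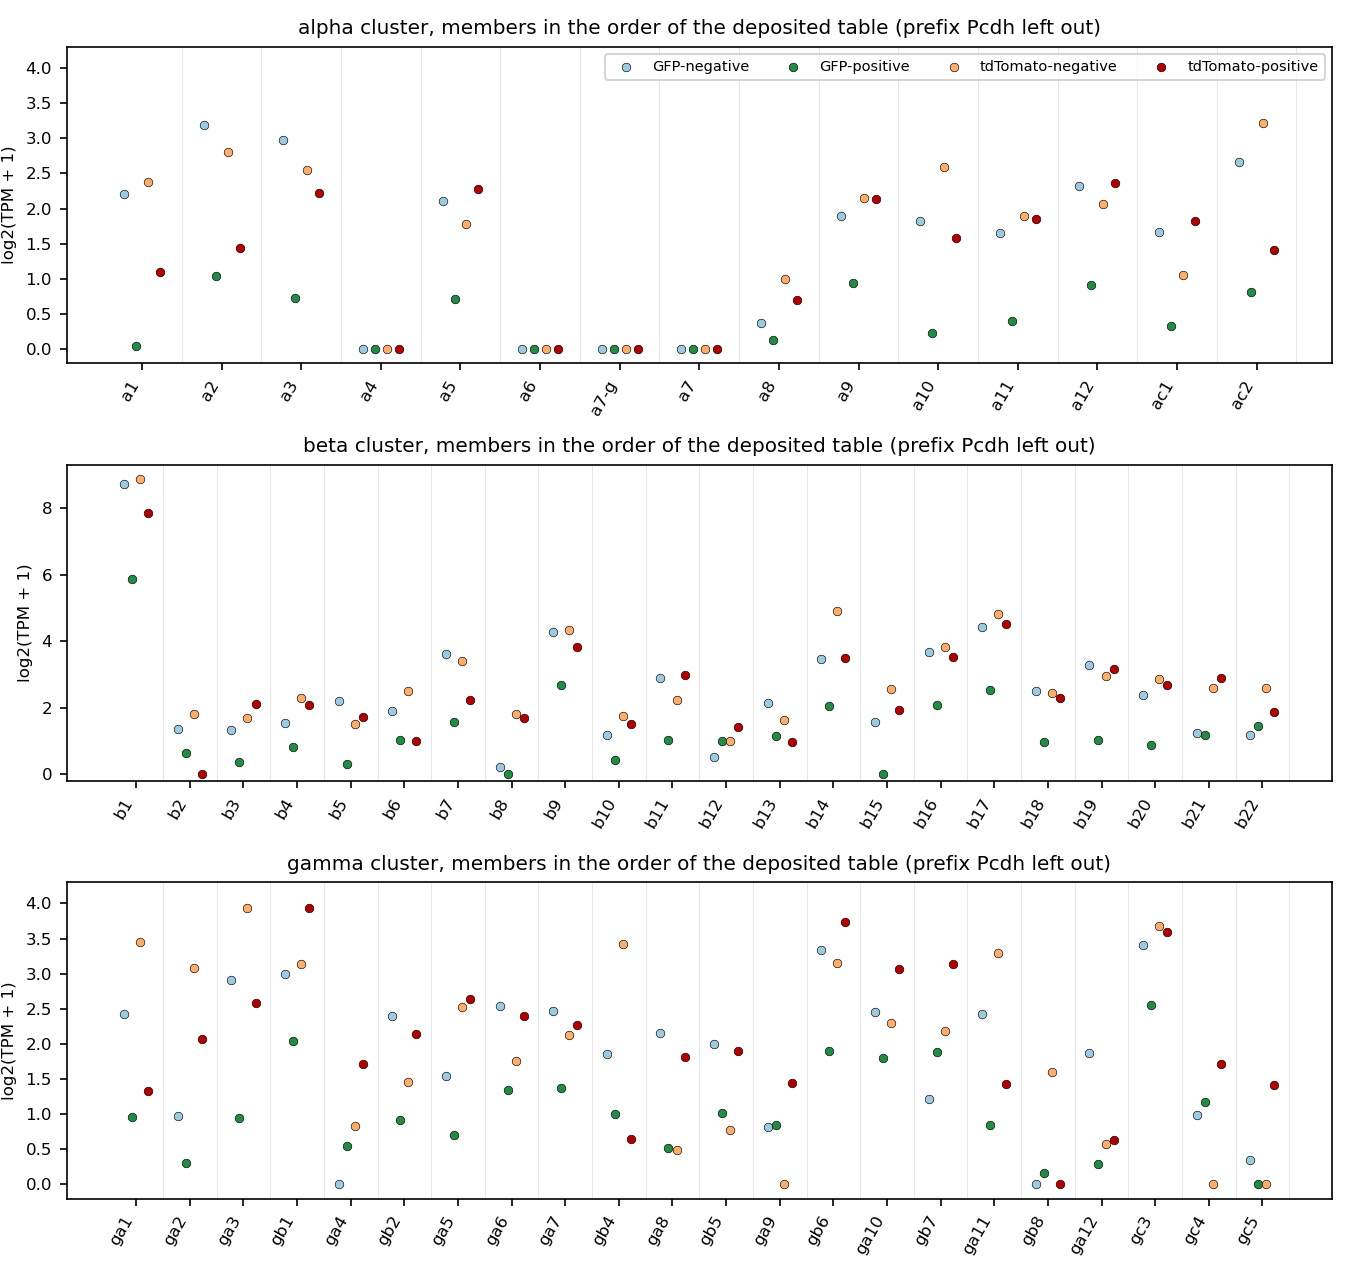
Level of each clustered protocadherin gene as log2(TPM + 1) in the 4 libraries, with 1 panel for each cluster and genes in the order of the deposited values. Each point is 1 library. *Pcdhb1* lies far above the other members in every library, and the 4 alpha genes listed at 0 lie on the baseline.

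One beta gene, *Pcdhb1*, dominated the family in every library. It was at 416.0 TPM in GFP-negative, 57.7 in GFP-positive, 469.7 in tdTomato-negative, and 227.5 in tdTomato-positive cells. Its rank among all genes was 318, 2145, 247, and 766, respectively. The second member was *Pcdhb17* (20.4 TPM), *Pcdhb9* (5.40 TPM), *Pcdhb14* (28.7 TPM), and *Pcdhb17* (21.7 TPM), respectively. *Pcdhb1* was thus 20.4-, 10.7-, 16.3-, and 10.5-fold above the next member. It held 63.9% of the TPM of all members in GFP-negative, 46.9% in GFP-positive, 60.9% in tdTomato-negative, and 49.3% in tdTomato-positive cells. The share was lower in the reporter-positive than in the reporter-negative cells of both lines.

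*Pcdhb1* kept a nearly fixed ratio to *Omp*. Its TPM was 4.34% of that of *Omp* in GFP-negative, 5.21% in GFP-positive, 4.65% in tdTomato-negative, and 5.14% in tdTomato-positive cells. These ratios spanned a 1.20-fold range, and those to the summed level of 12 mature OSN markers a 1.31-fold range, although both genes differed several-fold in TPM between the libraries. The summed TPM of the 2 alpha C genes had a ratio to *Omp* with a 1.22-fold range and to the 12 markers with a 1.27-fold range. This holds for the sum only, as the single genes went opposite ways in the tdTomato line. *Pcdhac1* was at 1.09 TPM in tdTomato-negative and 2.56 in tdTomato-positive cells, and *Pcdhac2* at 8.31 and 1.67. The other subgroups varied more in their ratio to *Omp*, up to a 3.66-fold range for gamma B and a 4.84-fold range for gamma C. The 58 members other than *Pcdhb1* summed to 2.45% of *Omp* in GFP-negative, 5.90% in GFP-positive, 2.98% in tdTomato-negative, and 5.29% in tdTomato-positive cells, which is 2.41- and 1.78-fold higher in reporter-positive cells. A rise relative to OSN markers was not particular to members. With the 12 markers set level, the median log2 fold change in the GFP line was 0.69 for members and 2.02 for all genes. In the tdTomato line it was 0.62 and 0.71. Among the clusters, gamma differed most, at 0.804% of *Omp* in GFP-negative, 2.59% in GFP-positive, 1.01% in tdTomato-negative, and 2.15% in tdTomato-positive cells. The alpha cluster was at 0.430%, 0.524%, 0.418%, and 0.618% of *Omp*, respectively, and the beta cluster without *Pcdhb1* at 1.22%, 2.79%, 1.55%, and 2.52%. These ratios rest on 1 library each, and their error is unknown.

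Without *Pcdhb1*, the family was spread over many members. The effective number of members, the exponential of the Shannon entropy of their TPM shares, is the number of equally expressed genes that would give the same evenness. It was 7.06, 13.2, 7.82, and 12.6 for all members in GFP-negative, GFP-positive, tdTomato-negative, and tdTomato-positive cells. After *Pcdhb1* was left out it was 36.7, 35.0, 35.0, and 37.4, so that the 4 libraries lay close together. By summed TPM with *Pcdhb1* included, the beta cluster held 72.0% to 81.8% of the family in each library, the gamma cluster 11.8% to 23.3%, and the alpha cluster 4.71% to 6.32%. The gamma cluster held 23.3% and 20.6% in the 2 reporter-positive libraries and 11.8% and 13.2% in the 2 reporter-negative libraries. Of the TPM without *Pcdhb1* it held 43.9% and 40.7% in the reporter-positive and 32.8% and 33.8% in the reporter-negative libraries.

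The order of members was only partly shared between libraries. Over the 55 members above 0 TPM in any library, Spearman's rho was 0.67 between the 2 reporter-negative and 0.64 between the 2 reporter-positive libraries. It was 0.64 within the GFP line and 0.51 within the tdTomato line. Across lines it was 0.60 for GFP-negative with tdTomato-positive and 0.52 for GFP-positive with tdTomato-negative cells. Within the tdTomato line rho was 0.81 over 22 beta genes, 0.37 over 22 gamma genes, and -0.16 over 11 alpha genes. Within the GFP line the corresponding values were 0.67, 0.71, and 0.62. These correlations are across genes and describe the libraries only, since genes are not independent replicates and neighbouring alpha or gamma genes share reads.

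The comparison of GFP-positive with GFP-negative cells asks which transcripts go with activity of TAAR enhancer 1. The summed TPM of all members was 651.1 in GFP-negative and 123.1 in GFP-positive cells (log2 ratio -2.40), and it was 235.1 and 65.4 without *Pcdhb1* (log2 ratio -1.85). The alpha cluster summed to 41.2 TPM in GFP-negative and 5.80 in GFP-positive cells (log2 ratio -2.83). The beta cluster without *Pcdhb1* summed to 116.9 and 30.9 TPM (log2 ratio -1.92), and the gamma cluster to 77.0 and 28.7 TPM (log2 ratio -1.42). All 3 clusters were lower in TPM in GFP-positive cells, but after both libraries were scaled to the same level of 12 mature OSN markers each of them was higher there (log2 ratios 0.29 for alpha, 0.53 for beta with *Pcdhb1*, and 1.69 for gamma). The gamma cluster was lower in TPM by the smallest factor, 2.68-fold against 7.10-fold for the alpha cluster. Gamma C genes summed to 10.9 and 6.11 TPM, a log2 ratio of -0.84 that became 0.05 under median-ratio scaling.

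**Figure D2:**
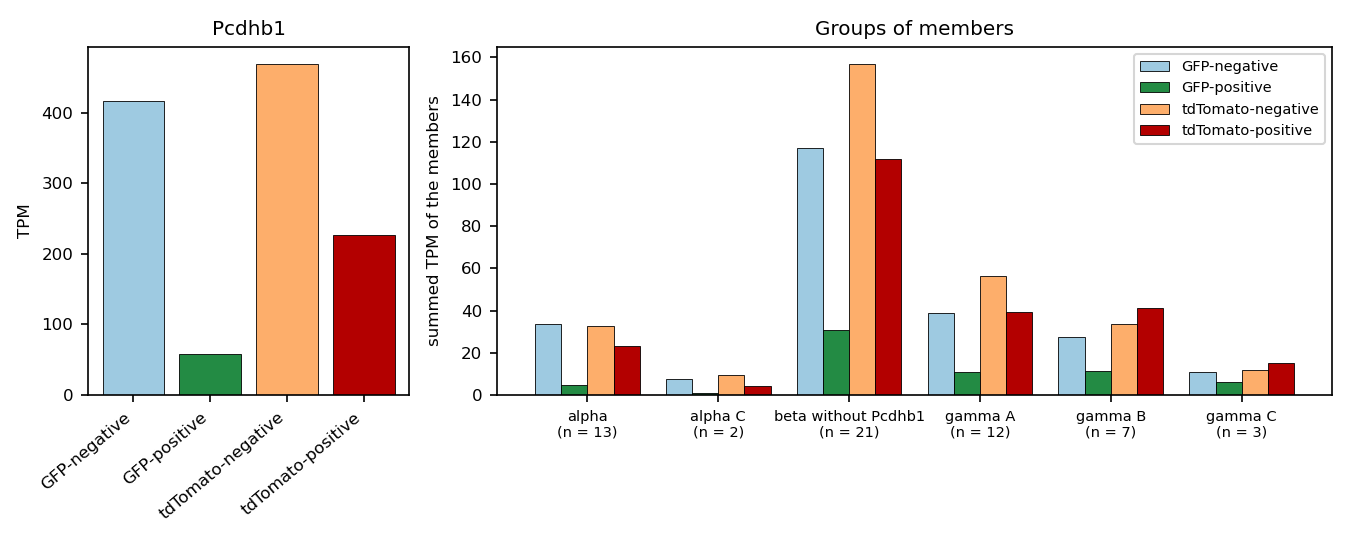
TPM of *Pcdhb1* (left) and summed TPM of the other members by subgroup (right) in the 4 libraries, with 1 bar for each library and n the number of genes. On the deposited TPM scale every bar of GFP-positive cells is the lowest of its group, whereas in tdTomato-positive cells gamma B (41.1 TPM) and gamma C (15.0 TPM) are above tdTomato-negative cells (33.4 and 11.8 TPM).

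Single genes were compared as log2 fold changes of TPM + 1, a scale that shrinks the differences of low genes, among genes with at least 1 TPM in either library of a line. In the GFP line 48 members met this minimum, and the other 11 did not. Of the 48, 30 (62.5%) were at least 2-fold lower in GFP-positive cells and 0 were at least 2-fold higher. Among all 16173 genes at the same minimum, 45.0% were at least 2-fold lower and 14.2% at least 2-fold higher. The median log2 fold change was -1.41 for members and -0.88 for all genes tested. The share that was lower was 9 of 10 alpha genes, 12 of 21 beta genes, and 9 of 17 gamma genes. Within the gamma cluster it was 7 of 9 subgroup A genes, 2 of 6 subgroup B genes, and 0 of 2 C-type genes.

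On the log2(TPM + 1) scale the largest difference in the GFP line was that of *Pcdhb1*, with a log2 fold change of -2.83, which became 0.27 with mature OSN markers set level. Without a pseudocount some lower genes differed by more, as *Pcdhb1* was 7.21-fold, *Pcdhb19* 8.35-fold, *Pcdha3* 10.5-fold, and *Pcdha10* 14.3-fold lower in GFP-positive cells. The most extreme ratio among members above 0 TPM in both libraries was 97.4-fold, for *Pcdha1* at 3.61 and 0.0371 TPM, a gene named after its values were seen. *Pcdha3*, an alternate alpha gene, was at 6.88 TPM in GFP-negative and 0.655 in GFP-positive cells (log2 fold change -2.25). *Pcdhb19* was at 8.75 and 1.05 TPM (log2 fold change -2.25). *Pcdha2*, the highest alternate alpha gene of any library, was at 8.17 and 1.07 TPM (log2 fold change -2.15). The other genes with the highest levels of their subgroups were lower as well. *Pcdhb17* was at 20.4 and 4.76 TPM, *Pcdhb14* at 9.999 and 3.15, *Pcdhga3* at 6.50 and 0.929, and *Pcdhgb6* at 9.09 and 2.74.

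Of the 48 members, 4 were higher in GFP-positive cells, all by less than 2-fold on the TPM + 1 scale, whereas 24.5% of all genes were higher. *Pcdhgb7* was at 1.31 TPM in GFP-negative and 2.69 in GFP-positive cells (log2 fold change 0.67). *Pcdhb12* was at 0.420 and 1.01 TPM (log2 fold change 0.50), *Pcdhb22* at 1.26 and 1.75 (0.28), and the C-type gene *Pcdhgc4* at 0.994 and 1.26 (0.18). All 4 were below 3 TPM in both libraries of this line, and without a pseudocount the ratio of TPM was 2.05 for *Pcdhgb7* and 2.41 for *Pcdhb12*.

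Markers of cell types differed between the same 2 libraries. All 12 mature OSN markers were at least 2-fold lower in GFP-positive cells (median log2 fold change -3.08), and their summed level was 34278 TPM in GFP-negative and 3633 in GFP-positive cells. All 7 immature OSN markers and all 7 pan-neuronal markers were lower too, with medians of -2.16 and -2.73 that became 0.90 and 0.37 when mature OSN markers were set level. All 6 Bowman gland markers, including *Bpifb9a* at 395.3 and 13474 TPM, and all 6 sustentacular cell markers were at least 2-fold higher, with medians of 5.13 and 2.63. Bowman gland markers summed to 1819 TPM in GFP-negative and 74836 in GFP-positive cells. Of 8 multiciliated cell markers, 6 were at least 2-fold higher (median 2.72), and their sum was 586.7 and 2407 TPM. Their part in the protocadherin values was not tested. With the mature OSN markers scaled to the same level, 38 of the 48 members changed sign. Of the 51 members that met the minimum after this scaling, 22 were at least 2-fold higher and 2 at least 2-fold lower, whereas 79.0% of all genes were higher and 7.35% lower.

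The comparison of tdTomato-positive with tdTomato-negative cells asks the same of TAAR enhancer 2. The summed TPM of all members was 770.7 in tdTomato-negative and 461.8 in tdTomato-positive cells (log2 ratio -0.74), and it was 301.0 and 234.3 without *Pcdhb1* (log2 ratio -0.36). The alpha cluster summed to 42.2 and 27.4 TPM (log2 ratio -0.63), and the beta cluster without *Pcdhb1* to 157.0 and 111.6 (log2 ratio -0.49). The gamma cluster was nearly level, at 101.8 and 95.3 TPM (log2 ratio -0.09). Its subgroups went different ways in TPM, as gamma A summed to 56.6 and 39.2 TPM (log2 ratio -0.53), gamma B to 33.4 and 41.1 (0.30), and gamma C to 11.8 and 15.0 (0.35). When mature OSN markers were set level, the signs of the sums over all members, the 3 clusters, and gamma A turned, and that of the gamma cluster also turned under median-ratio scaling (log2 ratio 0.06), while gamma B and gamma C stayed higher under all 3 other scalings.

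In the tdTomato line 54 members reached the minimum of 1 TPM, and the other 5 did not. Of these, 15 (27.8%) were at least 2-fold lower in tdTomato-positive cells and 5 (9.26%) were at least 2-fold higher. Among all 15777 genes tested, 23.2% were at least 2-fold lower and 17.2% at least 2-fold higher, so the share of lower members was near that of all genes. The median log2 fold change was -0.13 for members and -0.23 for all genes tested. By cluster the median was -0.31 for 11 alpha, -0.26 for 22 beta, and 0.64 for 21 gamma genes. At least 2-fold lower were 4 alpha, 5 beta, and 6 gamma genes.

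The 5 members that were at least 2-fold higher on the TPM + 1 scale all belong to the gamma cluster. With a pseudocount of 0.1 there were 8, of which 7 were gamma genes and 1 was *Pcdhac1*. With the pseudocount of 1, none of the members with at least 5 TPM in either library was at least 2-fold higher. *Pcdhgc4*, the C-type isoform known to be needed for the survival of some neurons, was listed at 0 in tdTomato-negative and at 2.29 TPM in tdTomato-positive cells. *Pcdhga9* (0 and 1.72 TPM) and *Pcdhgc5* (0 and 1.66 TPM) were also listed at 0 in tdTomato-negative cells, so no fold is given for these 3 genes. *Pcdhga8* was at 0.405 and 2.51 TPM (log2 fold change 1.32). *Pcdhgb5*, named after its values were seen, was at 0.711 and 2.74 TPM (log2 fold change 1.13). None of the 5 exceeded 3 TPM in this line, and the higher gamma genes *Pcdhgb1* (7.79 and 14.3 TPM) and *Pcdhgb6* (7.92 and 12.3 TPM) were higher by less than 2-fold, with log2 fold changes of 0.80 and 0.58.

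The 3 members with the lowest fold changes were gamma genes too. *Pcdhgb4* was at 9.67 TPM in tdTomato-negative and 0.567 in tdTomato-positive cells (log2 fold change -2.77). *Pcdhga1* was at 9.91 and 1.51 TPM (log2 fold change -2.12), *Pcdhga11* at 8.79 and 1.69 (-1.86), and *Pcdhga3* at 14.3 and 5.01 (-1.34). Single gamma genes thus lay on both sides of a nearly level sum. *Pcdhb1* was lower (log2 fold change -1.04), as was *Pcdhb14* at 28.7 and 10.2 TPM (-1.41), while *Pcdhb17* was at 27.3 and 21.7 TPM (-0.32).

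In this line 6 of 12 mature OSN markers were at least 2-fold lower in tdTomato-positive cells (median log2 fold change -1.02), and their summed level was 34089 and 17852 TPM. All 8 multiciliated cell markers were at least 2-fold higher (median 4.21), with *Foxj1*, the master regulator of motile cilia, at 114.3 and 975.5 TPM, and 5 of 6 Bowman gland markers were at least 2-fold higher as well. Sustentacular cell markers summed to 1711 TPM in tdTomato-negative and 9359 in tdTomato-positive cells, with 2 of 6 at least 2-fold higher and 2 at least 2-fold lower. The median log2 fold change was -0.95 for immature OSN and -1.02 for pan-neuronal markers, or 0.04 and -0.03 with mature OSN markers level. Multiciliated cell markers summed to 530.5 TPM in tdTomato-negative and 7888 in tdTomato-positive cells. Their part in the protocadherin values was not tested. With mature OSN markers level, 15 of the 54 members changed sign. Of the 51 members that then met the minimum, 17 were at least 2-fold higher and 3 at least 2-fold lower, compared with 37.3% and 13.1% of all genes.

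**Figure D3:**
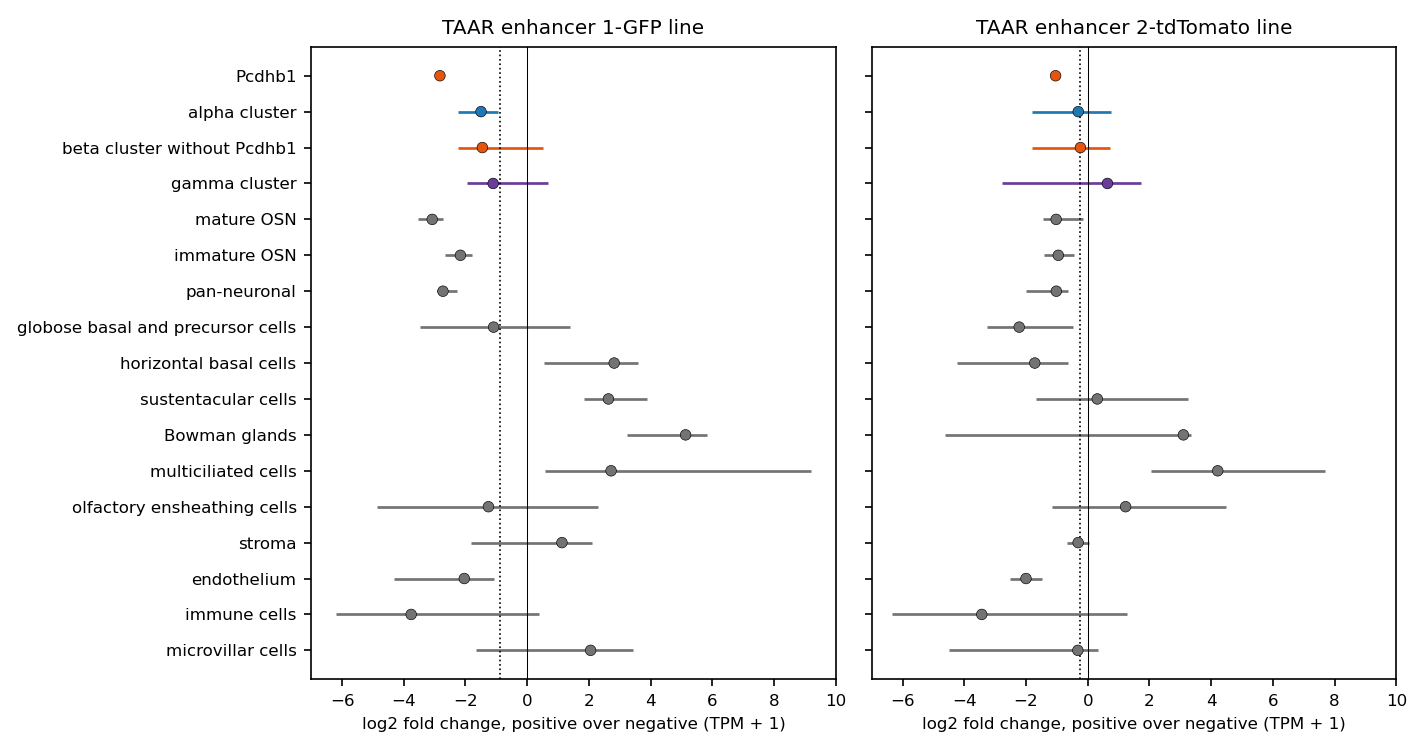
Log2 fold change of TPM + 1, positive over negative cells, in the GFP line (left) and the tdTomato line (right) for *Pcdhb1*, the 3 clusters, and marker genes of MOE cell types. Points are medians over genes that met the minimum of 1 TPM, lines run from the lowest to the highest gene, and the dotted line is the median of all genes tested. In the GFP line *Pcdhb1* (-2.83) lies near mature OSN markers (median -3.08), and the clusters lie between them and the median of all genes (-0.88).

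The 5 C-type genes, which many neurons express constitutively, had unlike levels. *Pcdhgc3* was the highest of them, at 9.66 TPM in GFP-negative, 4.85 in GFP-positive, 11.8 in tdTomato-negative, and 11.0 in tdTomato-positive cells, and it held 73.6% to 100% of the TPM of gamma C genes. Its log2 fold change was -0.87 in the GFP line and -0.09 in the tdTomato line. *Pcdhac2* was at 5.32, 0.753, 8.31, and 1.67 TPM, respectively, and was lower in the positive cells of both lines (log2 fold changes -1.85 and -1.80). *Pcdhac1* was at 2.19, 0.257, 1.09, and 2.56 TPM, lower in the positive cells of the GFP line (-1.34) and higher in those of the tdTomato line (0.77). *Pcdhgc4* did not exceed 2.29 TPM and *Pcdhgc5* did not exceed 1.66 TPM in any library.

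Over the 47 members that met the minimum in both lines, 26 were lower in positive cells of both lines, 17 were lower in the GFP line and higher in the tdTomato line, 3 (*Pcdhb12*, *Pcdhgb7*, and *Pcdhgc4*) were higher in both, and 1 (*Pcdhb22*) was higher only in the GFP line. These signs are those of the deposited TPM scale. With mature OSN markers set level, 38 of 48 members changed sign in the GFP line and 15 of 54 in the tdTomato line. The share of all genes with each pair of signs was not calculated. The 2 lines share no library. At least 2-fold lower in both were 10 of the 47, or 21.3%, compared with 15.4% of the 15033 genes tested in both lines. They were 4 alpha genes, including *Pcdha2* and *Pcdhac2*, 3 beta genes, including *Pcdhb1* and *Pcdhb14*, and the 3 gamma A genes *Pcdhga1*, *Pcdhga3*, and *Pcdhga11*. *Pcdhb1* fell short of 2-fold in the tdTomato line under median-ratio scaling (log2 fold change -0.89) and without the highest genes (-0.99). With mature OSN markers set level it was at -0.05 in the tdTomato line and 0.27 in the GFP line. *Pcdha10* was among the alpha genes, at 2.54 TPM in GFP-negative, 0.178 in GFP-positive, 5.05 in tdTomato-negative, and 2.00 in tdTomato-positive cells. No member was at least 2-fold higher in both lines on the TPM + 1 scale, although the ratio of TPM without a pseudocount was above 2 in both for *Pcdhgb7* (2.05 and 2.19).

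*Pcdhga8* was the only member at least 2-fold lower in the GFP line and at least 2-fold higher in the tdTomato line, a pattern of 1.76% of all genes. It was at 3.44 TPM in GFP-negative, 0.428 in GFP-positive, 0.405 in tdTomato-negative, and 2.51 in tdTomato-positive cells. The 2 reporter-negative libraries thus differed from each other by as much as the sorts within a line. The fold change in the tdTomato line exceeded that in the GFP line for 39 of 47 members (83.0%) and for 71.9% of all genes. The median difference of the log2 fold changes was 1.05 for members and 0.63 for all genes, and it was not tested.

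**Figure D4:**
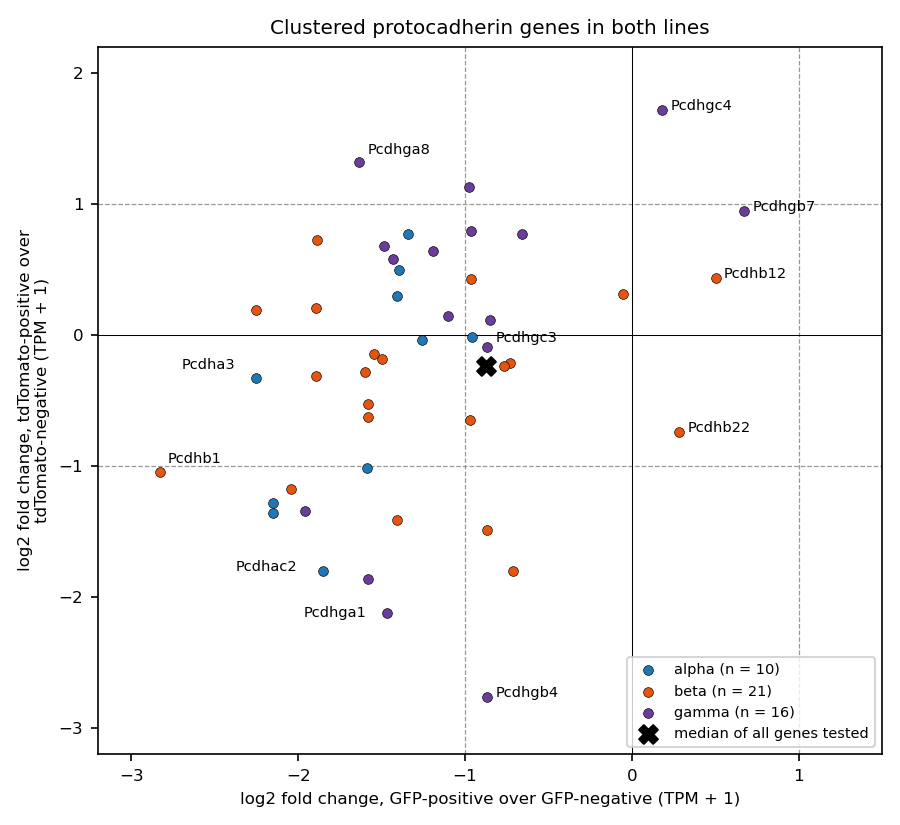
Log2 fold change of TPM + 1 in the GFP line (horizontal) against the tdTomato line (vertical) for the 47 members that met the minimum in both lines, coloured by cluster, with dashed lines at 2-fold and a cross at the median of all genes tested in each line. On the deposited TPM scale most members lie left of 0, and gamma genes reach on the vertical axis from *Pcdhgb4* (-2.77) to *Pcdhgc4*, whose height depends on the pseudocount because it was listed at 0 in tdTomato-negative cells.

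Genes known to act on the promoters of the clusters were examined as a group of 18, with *Wapl* read under its older symbol *Wapal*. In the GFP line 14 of 18 were at least 2-fold lower in GFP-positive cells and 0 were higher, and the median of their log2 fold changes was -1.27, which became 1.75 with mature OSN markers set level. Among all genes 45.0% were at least 2-fold lower, and the count of 14 became 2 under median-ratio scaling and 3 without the highest genes, where 21.5% and 29.3% of all genes were lower. The largest differences were *Tet1*, which oxidises methylated DNA, at 6.11 and 0.373 TPM (log2 fold change -2.37), the DNA methyltransferase *Dnmt3a* at 52.9 and 12.2 TPM (-2.03), and *Smchd1*, a silencing protein that acts on these clusters, at 56.1 and 16.0 TPM (-1.74). In the tdTomato line only *Tet1* passed 2-fold, at 7.23 and 1.64 TPM (-1.64), and the median was -0.51, or 0.45 with those markers level. *Smchd1* was lower by less than 2-fold there (-0.87), and *Stag2* was slightly higher (0.17). Of all genes in that line 23.2% were at least 2-fold lower and 17.2% higher, with a median of -0.23. *Ctcf*, whose product anchors the promoter loops, was at 96.1 TPM in GFP-negative, 35.8 in GFP-positive, 83.5 in tdTomato-negative, and 65.8 in tdTomato-positive cells. The cohesin subunit gene *Rad21* was at 200.2, 79.2, 203.2, and 125.1 TPM, respectively.

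Of 19 genes for binding partners, signalling, and cleavage of the proteins, 18 met the minimum in both lines. At least 2-fold lower were 9 in the GFP line and 3 in the tdTomato line, and none was at least 2-fold higher. The median log2 fold change was -0.89 in the GFP line and -0.20 in the tdTomato line, and both became positive with mature OSN markers level (2.16 and 0.76). Of all genes 45.0% and 23.2% were at least 2-fold lower and 14.2% and 17.2% at least 2-fold higher, with medians of -0.88 and -0.23, and median-ratio scaling brought the group's medians to -0.02 and -0.04. *Ptk2b*, which encodes the kinase PYK2 that clustered protocadherins hold in check, was at 68.7 TPM in GFP-negative, 8.97 in GFP-positive, 59.3 in tdTomato-negative, and 3.82 in tdTomato-positive cells. It was the lowest of the group relative to negative cells in both lines (log2 fold changes -2.81 and -3.64). *Fyn* (49.4 and 7.81 TPM) and *Psen2*, a catalytic subunit of gamma-secretase (280.1 and 63.5 TPM), followed in the GFP line. *Brk1*, a subunit of the WAVE actin regulator (161.2 and 65.2 TPM), and the sheddase *Adam10* (62.6 and 28.7 TPM) were the other 2 in the tdTomato line. *Cyfip1*, another WAVE subunit, was higher by less than 2-fold in both lines (log2 fold changes 0.40 and 0.87). *Nckap1* and *Rac1* were slightly lower in the GFP line (-0.19 and -0.19) and higher in the tdTomato line (0.44 and 0.37).

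The non-clustered protocadherins, which are not part of the alpha, beta, and gamma clusters, were a group of 12. In the GFP line 7 of the 9 that met the minimum were at least 2-fold lower (median log2 fold change -1.86, or 0.96 with mature OSN markers level), compared with 45.0% of all genes, led by *Pcdh10* at 29.3 and 2.57 TPM (-3.08) and *Pcdh8* at 35.2 and 4.95 TPM (-2.61). In the tdTomato line 4 of 11 were at least 2-fold lower and 2 were at least 2-fold higher (median -0.23, or 0.70 with those markers level), compared with 23.2% and 17.2% of all genes. *Pcdh7* was at 27.6 TPM in tdTomato-negative and 95.2 in tdTomato-positive cells (log2 fold change 1.75), while *Pcdh9* was at 26.1 and 8.41 TPM (-1.52). The large differences of the GFP line did not recur, as *Pcdh10* was at 24.4 and 20.7 TPM (-0.23) and *Pcdh8* was higher at 25.4 and 42.1 TPM (0.71). *Pcdh1* was higher as well, at 26.1 and 49.2 TPM (0.89). *Pcdh15* was listed at 0 in tdTomato-negative and at 1.14 TPM in tdTomato-positive cells, and *Pcdh18* at 1.59 and 0 TPM. The group summed to 170.7 TPM in GFP-negative, 54.1 in GFP-positive, 180.2 in tdTomato-negative, and 248.4 in tdTomato-positive cells.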

How the data were processed

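RNA-seq of FACS-sorted MOE cells was analysed in 4 libraries, with 1 library for each group, and groups were taken from the sample labels. The authors deposited 1 TPM value for each gene symbol and library, and each library sums to 1000000. The submitters' processing notes name Trimmomatic 0.36, Salmon 1.4.0, and mm10, whereas the study's methods name Hisat2, Cufflinks, and featureCounts, so the step that gave the TPM values is unsure. The gene annotation and filters were not given in the sources used here. Labels and methods also name different extraction and library kits. Depth is unknown, and no intervals or detection limits were calculated.

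Fold changes were calculated as log2 of TPM with a pseudocount of 1, among genes with at least 1 TPM in either library of a line, and a gene was counted as higher or lower from 2-fold on. Sums of TPM were compared as log2 ratios without a pseudocount. The procedure was tested on simulated libraries in which 200 genes were changed. Only genes with at least 10 TPM in the reporter-negative library were simulated. Of the 59 members, 5 in GFP-negative and 7 in tdTomato-negative cells reached that level, so the simulation does not cover most members. Alternatives were pseudocounts of 0.1 and 10, a minimum of 5 TPM or none, median-ratio scaling, rescaling without the genes among the 10 highest of any library, scaling to 12 mature OSN markers, and leaving out the highest gene of a cluster, *Pcdhb1*, *Pcdhac2*, or *Pcdhgb1*. The rule for members reads symbols only, but the family, the gene lists, and the marker lists were chosen with earlier results of these data known. Named genes were the C-type genes and the 3 highest of each of alpha, beta, gamma A, and gamma B. The 3 highest and 3 lowest fold changes of each line and genes past 2-fold in opposite directions were named too. In the gene lists, most but not all of the 3 largest differences of each direction were named, and *Ctcf* was added. Symbols were matched through RefSeq of GRCm38.p6, and shared windows were counted in GENCODE M21 transcripts. Promoter and protein sequences of members were not analysed here. Python 3.11.15, NumPy 2.4.6, pandas 2.3.3, and matplotlib 3.10.9 were used.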

Additional observations from a re-analysis of the deposited data

Results flagged for a closer look

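*Pcdhga8* went in opposite directions in the 2 lines, as its log2 fold change was -1.64 in the GFP line and 1.32 in the tdTomato line. Each value compares 1 library with 1 library, and the difference between the lines was not tested. All 4 values of the gene are at or below 3.44 TPM, and 47.9% of its 50-base windows also occur in a transcript of another gene.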

How the results depend on the processing

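Depth is unknown and each group has 1 library, so no test, interval, or error could be given. No paired analysis was possible because each comparison sets 1 library of a line against 1 other, and the lines carry different enhancers and were not pooled as replicates. The results compared across settings were the summed TPM of all members and of each cluster, the median fold change of members, the counts past 2-fold, and, as alternatives chosen after seeing the data, *Pcdhb1* alone. Of the values under alternatives, 51 kept their direction within 1.5-fold, 23 moved, and 12 turned in sign. The median of all genes shifted by 0.84 (GFP line) and 0.15 (tdTomato line) under median-ratio scaling, by 0.47 and 0.05 without the highest genes, and by 2.89 and 0.94 with mature OSN markers set level. With these markers level, the log2 ratios turned to 0.71 for all members, 0.29 for alpha, 0.53 for beta, and 1.69 for gamma in the GFP line, and to 0.25, 0.37, 0.11, and 0.90 in the tdTomato line. The median fold change of members turned to 0.69 and 0.62, against 2.02 and 0.71 for all genes, and that of *Pcdhb1* was 0.27 in the GFP line and -0.05 in the tdTomato line. The counts at least 2-fold higher were then 22 and 17, and those at least 2-fold lower 2 and 3, while 79.0% and 37.3% of all genes were higher and 7.35% and 13.1% lower. Median-ratio scaling gave log2 ratios in the GFP line of -1.52 for all members, -1.94 for alpha, -1.70 for beta, and -0.54 for gamma, 17 of 49 members lower and 1 higher (21.5% and 22.4% of all genes), and -1.95 for *Pcdhb1*. In the tdTomato line it turned the gamma ratio to 0.061. Without *Pcdhb1* the beta ratio in the GFP line was -1.92, and the alpha ratios without *Pcdhac2* were -2.83 and -0.40 and the gamma ratios without *Pcdhgb1* -1.45 and -0.21 in the GFP and tdTomato lines. Without the highest genes 1 member was at least 2-fold higher in the GFP line. A pseudocount of 0.1 gave a median of -2.06 and 1 member higher in the GFP line and 8 higher in the tdTomato line. A pseudocount of 10 gave a median of -0.36 and 2 members lower in the GFP line, and 0 higher and 1 lower in the tdTomato line. A minimum of 5 TPM left 13 members lower in the GFP line and 0 higher in the tdTomato line. Pseudocounts and minimums act by construction on the many low members, and the cause of the differences between scalings was not tested.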

Other observations

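Markers of the other cell types that the sorts could hold were measured as well. Globose basal and precursor cell markers summed to 140.7 TPM in GFP-negative, 58.8 in GFP-positive, 123.2 in tdTomato-negative, and 21.1 in tdTomato-positive cells. Horizontal basal cell markers summed to 56.8, 391.9, 140.4, and 30.1 TPM, respectively, with *Krt5* at 15.7, 199.6, 56.5, and 16.5 TPM. Microvillar cell markers summed to 48.3, 243.5, 252.7, and 236.4 TPM. Stroma markers summed to 59.4, 149.2, 35.4, and 34.4 TPM, and olfactory ensheathing cell markers to 40.6, 21.8, 17.1, and 57.8 TPM. Endothelium markers summed to 51.0, 1.55, 42.9, and 6.40 TPM, with 2 of 5 listed at 0 in each reporter-positive library. Immune cell markers summed to 3854, 2196, 2279, and 1830 TPM, with *Ptprc* at 178.3, 3.14, 194.0, and 1.42 TPM. Of the 5 immune markers, 4 were at least 2-fold lower in the positive cells of both lines, while *Lyz2* was higher, at 1581, 2043, 706.7, and 1707 TPM, and made up most of the sums in positive cells. *Pecam1* of endothelium was at 41.2, 1.10, 41.0, and 6.29 TPM, so that both it and *Ptprc* were lower in the positive cells of both lines. The part of these cells in the protocadherin values was not tested.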
